A study of Arabidopsis thaliana with 4 samples.

Results

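Genes of 5 subunits of the exocyst other than EXO70 were followed in seedlings that carry a mutation in an EXO70 gene. They are SEC5A, SEC6, SEC10, SEC15A, SEC15B, EXO84B and AT1G10180, which is EXO84C. They were taken as the probe sets whose annotation gives 1 of these genes and no other. Each of the 7 genes had 1 such probe set, so 7 genes were followed out of 13355 with a probe set of their own. The exocyst is a protein complex that holds a secretory vesicle at the plasma membrane until SNARE proteins can fuse it. Plants use it where growth is local or directed, as in root hairs, pollen tubes, the cell plate and the seed coat. In yeast the SEC5 and SEC6 subunits pack with SEC3 and SEC8, and the SEC10, SEC15 and EXO84 subunits pack with EXO70. Arabidopsis has several gene copies for most subunits.

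The tested plants carried the exo70A1-2 mutation in EXO70A1, the gene of an EXO70 subunit, in the Col-0 strain, and the control plants were Col-0. Each genotype was measured on 2 ATH1 arrays, as replicate 1 and replicate 2, from RNA of whole seedlings aged 1 week. All had been grown upright on 1.6% agar at 22 °C in constant light, after 3 days of cold, per the labels. The labels give neither the kind of lesion in exo70A1-2 nor the source of the replicates (separate plates or a single harvest). The p-values therefore cover only the variation among these 4 arrays, part or all of which may be technical.

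The array signal is a MAS5 intensity on a linear scale, with the trimmed mean of every array set to 100 by the authors. Median signals were 38.8 and 38.6 on the exo70A1-2 arrays and 37.3 and 38.5 on the Col-0 arrays. Probe sets whose mean log2 signal reached the 40th percentile, a signal of 21.9, entered the test. With control probe sets left out, 13648 of 22746 did. No probe set was named for EXO70A1 itself, so its level does not check the genotype labels here. The root marker PYK10 and the leaf markers RCA and LHCB4.1 were bright, while the leaf markers of the stomatal lineage, SPCH and FMA, were near the limit for testing, with 19.9 for SPCH on exo70A1-2 replicate 2. The 4 root markers with a probe set summed to signals of 5432 and 5560 in exo70A1-2 and 5467 and 5538 in Col-0, mostly from PYK10, and the 4 leaf markers, mostly RCA and LHCB4.1, summed to 8820 and 9058 in exo70A1-2 and 10190 and 9399 in Col-0. The seed storage gene PAP85 was dim on all 4 arrays, at most 10.96. Of 5 flower markers, 0 had a probe set of their own name. Precision is limited by having only 2 arrays of a genotype.

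All 7 exocyst genes were bright enough to be tested, and 0 of the 7 passed the test between exo70A1-2 and Col-0 at an adjusted p under 0.05 (limma, Benjamini-Hochberg over all tested probe sets). Over all tested probe sets 16.04% passed, made up of 8.54% with exo70A1-2 higher and 7.50% with exo70A1-2 lower. At an unadjusted p under 0.05, 1 of the 7 passed, against 31.4% of all tested probe sets. The log2 fold changes of exo70A1-2 over Col-0 lay between -0.22 for SEC10 and 0.44 for SEC15B, with a median of 0.06, and the median of all tested probe sets was -0.00086. The median size of the change, without its sign, was 0.11 for the 7 genes and 0.24 for all tested probe sets. Of the 7 values, 5 were above 0 and 2 were below. In whole seedlings, fewer cells of a type and less RNA per cell cannot be told apart.

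**Figure D1:**
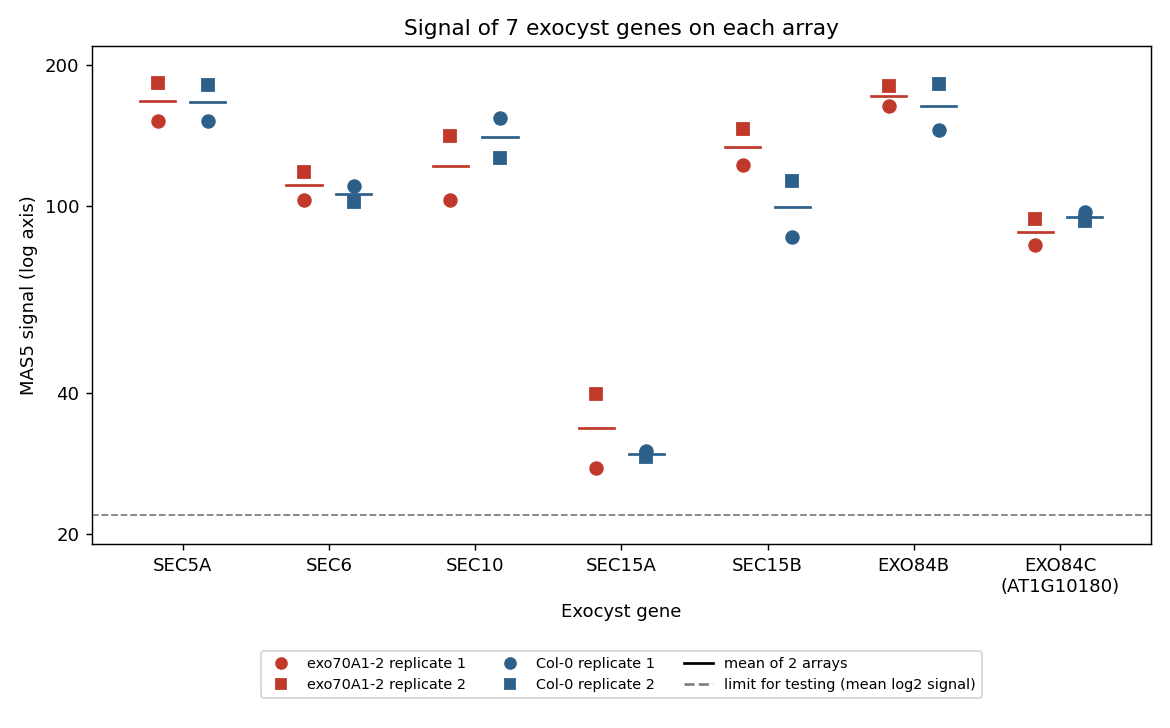
MAS5 signal on a log axis for the 7 exocyst genes, with exo70A1-2 arrays in red and Col-0 arrays in blue, circles for replicate 1, squares for replicate 2, short lines for the mean of 2 arrays and a dashed line at the signal of 21.9 that the mean log2 signal had to reach. Signals of different genes come from different probes and are not comparable with each other. The arrays of the genotypes overlap for 6 genes and lie apart for SEC15B.

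SEC5A and SEC6 stood closest to no difference. SEC5A encodes a subunit whose animal counterpart binds Ral GTPases. Its signal was 152.1 and 183.6 in exo70A1-2, against 152 and 181.8 in Col-0. The 2 genotypes gave nearly the same pair of values, and the arrays of a genotype differed far more than the genotypes did. The means were 168 ± 22.3 in exo70A1-2 and 167 ± 21.1 in Col-0 (SD, n = 2 each), a log2 fold change of 0.01 (SE 0.15, 95% interval -0.34 to 0.36). That change was smaller than those of all but 1.76% of tested probe sets. Its sign has no weight, being -0.02 with equal array medians and -0.01 with quantile normalization.

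SEC6 encodes a subunit whose yeast counterpart binds SNARE proteins and their regulators. Its signal was 103.3 and 118.7 in exo70A1-2, against 110.6 and 102.4 in Col-0. A Col-0 value lay between the exo70A1-2 values, and the other lay just below them. SEC6 averaged 111 ± 10.8 in exo70A1-2 and 107 ± 5.79 in Col-0 (SD, n = 2 each). The log2 fold change was 0.06 (SE 0.15, 95% interval -0.28 to 0.39), and it was -0.04 without exo70A1-2 replicate 2.

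SEC10, a subunit of the EXO70 side of the complex, had the lowest fitted value. Its signal was 103.1 and 141 in exo70A1-2, against 154.4 and 127.1 in Col-0. The lowest of the 4 values was an exo70A1-2 array and the highest a Col-0 array, but the other 2 arrays crossed over. SEC10 averaged 122 ± 26.8 in exo70A1-2 and 141 ± 19.3 in Col-0 (SD, n = 2 each), a log2 fold change of -0.22 (SE 0.18, 95% interval -0.63 to 0.20, adjusted p = 0.459, limma). It was 0.01 without exo70A1-2 replicate 1, so the direction rested on that array. In Col-0 this gene is known as a tandem pair of near-identical copies, and the signal may hold both.

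The SEC15 subunit is the part of the complex that contacts the vesicle, through a Rab GTPase in yeast. Its gene SEC15B was the member nearest to the threshold. The signal of SEC15B was 122.4 and 146 in exo70A1-2, against 85.9 and 113.1 in Col-0. Both exo70A1-2 values were above both Col-0 values, with a gap between 122.4 and 113.1 that is smaller than the distance between the arrays of either genotype. SEC15B was the only 1 of the 7 genes whose genotypes did not overlap, while 60.6% of all tested probe sets did not overlap and 29.97% did so with exo70A1-2 higher. The means were 134 ± 16.7 in exo70A1-2 and 99.5 ± 19.2 in Col-0 (SD, n = 2 each). The log2 fold change was 0.44 (SE 0.18), a fold of 1.36. Its 95% interval, 0.04 to 0.84 and not adjusted for the number of probe sets, left out 0, with an unadjusted p of 0.0344 (limma). After adjustment over all tested probe sets it did not pass, with an adjusted p of 0.125 (limma). With the replicate number as a block its adjusted p was 0.0126 (limma), but the labels do not say that the numbers pair the arrays. The change was larger in size than those of 74.8% of tested probe sets. The size of the SEC15B change depended on the arrays used. Fits that kept a single Col-0 array gave a log2 fold change of 0.64 against replicate 1 and 0.24 against replicate 2. Those that kept a single exo70A1-2 array gave 0.31 with replicate 1 and 0.57 with replicate 2.

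SEC15A, the other SEC15 copy, known for its need in pollen, was the member nearest to the limit for testing. Its signal was 27.6 and 39.8 in exo70A1-2, against 30.1 and 29.2 in Col-0. The Col-0 values were close together and lay between the exo70A1-2 values. SEC15A averaged 33.7 ± 8.61 in exo70A1-2 and 29.7 ± 0.633 in Col-0 (SD, n = 2 each), a log2 fold change of 0.16. Its standard error of 0.23 and its 95% interval, -0.38 to 0.69, were the widest of the 7 genes. The value was -0.10 without exo70A1-2 replicate 2, and its lowest signal was 1.26 times the limit for testing, where MAS5 values are noisy.

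EXO84B, whose product takes part in cytokinesis and in directed secretion, had signals of 163.8 and 180.8 in exo70A1-2, against 145.8 and 182.2 in Col-0. The exo70A1-2 values lay inside the range of the Col-0 values. EXO84B averaged 172 ± 12 in exo70A1-2 and 164 ± 25.7 in Col-0 (SD, n = 2 each), a log2 fold change of 0.08 (SE 0.15, 95% interval -0.26 to 0.42). Without Col-0 replicate 1 it was -0.08.

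AT1G10180 (EXO84C), another EXO84 copy, had signals of 82.6 and 94.1 in exo70A1-2, against 97.1 and 93.2 in Col-0. The upper exo70A1-2 value fell between the Col-0 values and the lower one beneath them. The means were 88.4 ± 8.11 in exo70A1-2 and 95.2 ± 2.79 in Col-0 (SD, n = 2 each). The log2 fold change was -0.11 (SE 0.15, 95% interval -0.45 to 0.23).

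**Figure D2:**
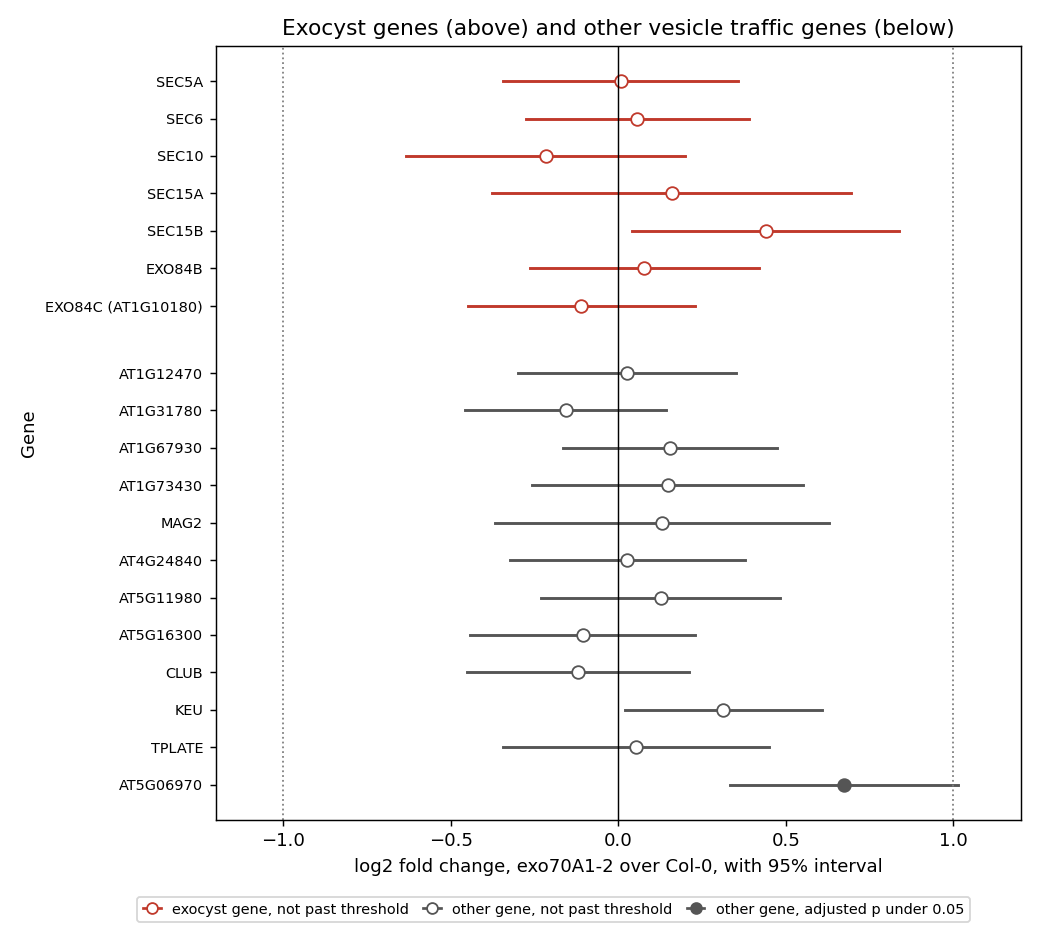
Fitted log2 fold change of exo70A1-2 over Col-0 (points) with its unadjusted 95% interval (lines) for the 7 exocyst genes, above, and the 12 tested genes of 3 other vesicle traffic lists, below, with dotted lines at 2-fold in either direction. All 7 exocyst intervals lie between the dotted lines, and only SEC15B's among them leaves out 0.

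A change that misses the threshold is not shown to be absent, and the intervals give the sizes that these arrays leave possible. For each of the 7 genes the unadjusted 95% interval lay within a 2-fold change in either direction. For 4 of them, SEC5A, SEC6, EXO84B and AT1G10180, it also lay within 1.5-fold. For SEC10 it reached down to a fold of 0.645, and for SEC15A and SEC15B up to folds of 1.62 and 1.79. The whole width of the intervals ran from 0.67 on the log2 scale for SEC6 to 1.07 for SEC15A.

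**Figure D3:**
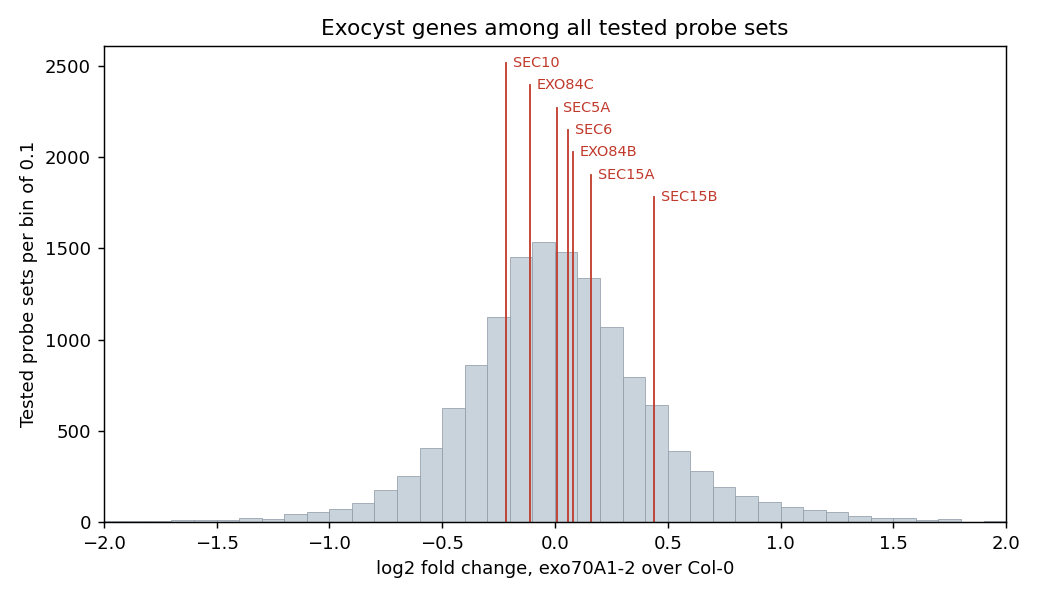
Number of tested probe sets in bins of 0.1 of log2 fold change, exo70A1-2 over Col-0 (grey bars, the far ends not drawn), with a red line at the value of each exocyst gene. Of the 7 lines 6 stand in the central peak, and SEC15B, at 0.44, stands on its right flank.

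The 2 subunits with a pair of gene copies here were compared within arrays, to ask whether the copies moved unequally between the genotypes. The log2 fold change of SEC15B exceeded that of SEC15A by 0.28, and that of EXO84B exceeded that of AT1G10180 by 0.19. With 2 arrays against 2, at least 2 of the 6 ways to split the arrays give a difference as large, so an exact permutation test could not pass whatever the difference. Its p was 0.667 for each pair (two-sided, 0.667 after adjustment over the 2 pairs), which does not show whether the copies moved alike. The EXO84 difference was -0.0029 without Col-0 replicate 1.

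For 6 of the 7 genes, all but SEC15B, the log2 signals of the 2 exo70A1-2 arrays lay further apart than the means of the genotypes. In exo70A1-2, replicate 2 gave the higher signal for 7 of 7 genes, by 0.14 to 0.53 on the log2 scale with a median of 0.25, whereas 50.3% of all tested probe sets were higher on that array. In Col-0, replicate 2 gave the higher signal for 3 of 7 genes, SEC5A, SEC15B and EXO84B, against 51.01% of all tested probe sets. The mean centred log2 signal of the 7 genes was -0.12 and 0.18 on the exo70A1-2 arrays and -0.06 and 0.0046 on the Col-0 arrays, so the exo70A1-2 arrays enclosed the Col-0 arrays. Set against Col-0 replicate 1, 3 of the 7 genes were higher on exo70A1-2 replicate 1 and 5 of the 7 on exo70A1-2 replicate 2. Set against Col-0 replicate 2, 2 were higher on exo70A1-2 replicate 1 and 6 on exo70A1-2 replicate 2. The part of this array gap in the genotype values was not tested, and the labels give no batch. Without exo70A1-2 replicate 2 the median log2 fold change of the 7 genes was -0.10, against 0.06 with all arrays.

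**Figure D4:**
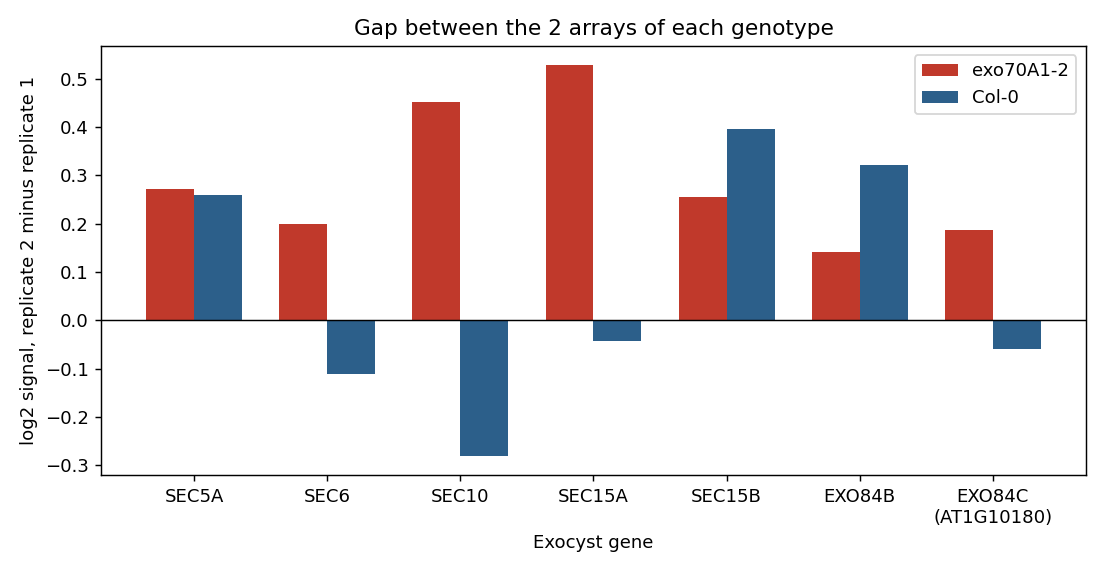
Difference in log2 signal between replicate 2 and replicate 1 for each exocyst gene, with red bars for exo70A1-2 and blue bars for Col-0. All 7 red bars are above 0, from 0.14 to 0.53, while the blue bars run from -0.28 for SEC10 to 0.40 for SEC15B.

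The 7223 other named genes tested were ranked by how closely their signals over the 4 arrays followed the mean profile of the 7 exocyst genes. The nearest were XTH16, a xyloglucan endotransglucosylase gene, AT3G49220 and AT1G50380. Their root mean square differences from that profile, on centred log2 signals over 4 arrays, were 0.0045, 0.0078 and 0.012. The exocyst genes themselves lay between 0.071 (SEC6) and 0.22 (SEC15B) from it. The 3 genes were picked as the nearest, so their small distances follow from the choice. XTH16, for example, had signals of 145 and 177.1 in exo70A1-2, against 149.8 and 158.5 in Col-0.

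The rest of the exocyst was hardly covered by named probe sets. Of 28 further exocyst genes, which included the EXO70 family without EXO70A1, only SEC5B had a probe set of its own name. SEC5B, the other SEC5 copy, had signals of 19.5 and 20.2 in exo70A1-2, against 12.8 and 16.4 in Col-0. All 4 values were under 21.9, so it was not tested and no fold is given. SEC3A and SEC3B share 1 probe set and were not analysed here.

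Few genes of the steps around exocyst tethering could be tested. Of 83 genes on 4 lists of exocyst, other tethering, membrane fusion and partner genes, the 7 members left aside, 12 were tested, 1 was higher in exo70A1-2 and 0 were lower, against 14.1% of named genes called in either direction and 7.58% called higher. The only list with more than 2 tested genes was that of other tethering complexes. All 9 of its tested genes missed the threshold, with log2 fold changes from -0.16 for AT1G31780 to 0.15 for AT1G67930, a median of 0.03 and a lowest adjusted p of 0.459 (limma). AT1G73430 also stood at 0.15. CLUB, a TRAPP tether subunit of the cell plate, stood at -0.12, and MAG2, a gene of transport between ER and Golgi, at 0.13.

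KEU (KEULE), which encodes a Sec1/Munc18 protein that helps SNAREs fuse at the cell plate, had signals of 181 and 199.6 in exo70A1-2, against 150.5 and 155.4 in Col-0. Its genotypes did not overlap, as for 60.6% of all tested probe sets. KEU missed the threshold with a log2 fold change of 0.31 (SE 0.13, adjusted p = 0.136, limma). With the replicate number as a block it passed (adjusted p = 0.0423, limma), in a fit that called 31.3% of all tested probe sets. TPLATE, a cell plate and endocytosis gene, stood at 0.05. SEC1B was too dim on average to be tested, with signals of 16.8 and 24.0 in exo70A1-2 and 22.1 and 18.6 in Col-0.

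The gene that passed was AT5G06970, a locus entered in the partner list and carried without a symbol in the tables used here. Its signal was 126.1 and 150.6 in exo70A1-2, against 88.2 and 84.8 in Col-0. Both exo70A1-2 values were clear of both Col-0 values. AT5G06970 averaged 138 ± 17.3 in exo70A1-2 and 86.5 ± 2.41 in Col-0 (SD, n = 2 each), a log2 fold change of 0.67 (SE 0.15, 95% interval 0.33 to 1.01, adjusted p = 0.0185, limma). Without exo70A1-2 replicate 2 the log2 fold change was 0.54, in a fit that left 1 array of that genotype.

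Each tested marker of root, leaf and dividing cells also missed the threshold. The 4 root markers had log2 fold changes between -0.04 for PYK10 and 0.22 for EXPA18. All 4 leaf markers were below 0, with the stomatal lineage genes SPCH and FMA at -0.61 and -0.51, and RCA and LHCB4.1 at -0.16 and -0.09. AUR1 and AUR2, kinase genes of dividing cells, stood at -0.26 and -0.51, and their summed signal was 161 and 147 in exo70A1-2, against 187 and 203 in Col-0. The part of such differences in the exocyst values was not tested. The 5 reference genes with a probe set ran from -0.02 to 0.21.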

How the data were processed

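RNA of 2 exo70A1-2 and 2 Col-0 samples was hybridised to 1-colour ATH1 arrays. The deposited table holds 1 intensity per probe set and array, made by the authors with MAS5 and GCOS, per the submitters' processing notes, which give no version. As the values show, each array was scaled to a mean of 100, the top and bottom 2% left out. Detection calls were not used here. Each MAS5 value comes from its own array, with mismatch probes subtracted, and is noisy when low.

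Signals were turned to log2 without a constant. The 64 control probe sets were left out, and 13648 of the other 22746 reached the 40th percentile of mean log2 signal. limma 3.58.1 in R 4.3.3 (lmFit, eBayes with an intensity trend, 6.66 prior degrees of freedom, two-sided) compared the genotypes over all of them, with Benjamini-Hochberg adjustment. Intervals are the moderated 95% ones. The fit was also run, without the filter, on simulated data of equal variance, and gave mean changes close to those put in. That run does not test the p-values on these arrays. Figures were drawn with matplotlib 3.10.9.

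Probe sets were named from a probe annotation table through RefSeq (TAIR10.1, names only). Of 22746, 13513 had 1 gene, 503 several and 8730 none. The brightest probe set stood for a gene of a list.

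The 7 genes and the lists were chosen with earlier results of these data known. Named were the 7 genes, list genes that passed and otherwise up to 3 of a list with the largest change, and the 3 nearest profiles. TPLATE, CLUB, MAG2, the dim genes SEC5B and SEC1B and PAP85 were named after their values were seen. The markers PYK10 and LHCB4.1 were also named outside that rule.

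Alternatives were other scalings, filters, variance priors and thresholds, 16 added to each signal, the replicate number as a block, and leaving out each array.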

Additional observations from a re-analysis of the deposited data

How the results depend on the processing

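No member was called lower in any setting run. With the replicate number as a block, SEC15B passed (limma, adjusted p = 0.0126, against 0.0126 to 0.534 over its 12 alternatives), so that 1 member was called higher; 2 traffic genes were called higher, KEU being added, and 2168 probe sets were higher and 2098 lower, 31.3% of those tested. The replicate differences correlated at 0.28 between the genotypes across probe sets, and whether same-numbered arrays share something was not tested. The numbers were not taken as pairs, since the labels do not say what they share and there are only 2 of them. Without the intensity trend 679 probe sets were lower, and at a threshold of 0.10 1599 were lower. Leaving out 1 array, with the lone array of a genotype assumed to vary like the others, gave 549 to 1767 probe sets higher, 391 to 1374 lower, 0 to 1 members higher, 0 to 1 traffic genes higher and a member median from -0.10 to 0.15. In the same fits the log2 fold change ran from -0.13 to 0.14 for SEC5A, -0.042 to 0.16 for SEC6, -0.44 to 0.0090 for SEC10, -0.10 to 0.42 for SEC15A, 0.24 to 0.64 for SEC15B, -0.083 to 0.24 for EXO84B and -0.20 to -0.02 for AT1G10180. The differences between copies, put through these settings after the data were seen, ran from 0.06 to 0.50 for SEC15 and from -0.0029 to 0.38 for EXO84. Beyond these, SEC5A changed sign with equal array medians, to -0.023, and with quantile normalization, to -0.010. SEC15A was not tested with the filter at the 60th percentile. The causes were not tested. Of the 7 genes SEC15A lay nearest to the limit for testing, at 1.26 times it.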
